A study of Mus musculus with 2 samples.

Results

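Membrane mucins and brush-border genes were followed here as 8 genes, Muc1, Muc4, Muc13, Muc20, Vil1, Cdh17, Lgals4 and Ezr, taken by symbol from the 32227 genes of a single-cell RNA sequencing study of dysplastic mouse gastric organoids. The organoids were Meta4, 1 dysplastic line derived from the stomach corpus of mice carrying Mist1-CreERT2Tg/+ together with LSL-K-ras(G12D)Tg/+, in which a tamoxifen-inducible Cre recombinase under control of Mist1, a gene active in gastric chief cells, switches on an activated K-ras allele. Both groups carry these alleles and the label of dysplasia induction. One group received pyrvinium, an anthelmintic drug, and the other its solvent DMSO, each for 1 day. Each group is 1 library, so nothing below has a replicate check, no p-value was computed, and "higher" and "lower" compare 2 libraries only. The series title names dual suppression of MEK/ERK and STAT3 signalling in stem cells and dysplastic features as its purpose.

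Transmembrane mucins are heavily O-glycosylated proteins of the apical cell surface, where they form a barrier and pass signals to receptors and catenins through their cytoplasmic tails. The brush border is the array of microvilli below them: villin bundles and severs the actin of the microvillar core, ezrin ties that actin to the membrane, and galectin-4, made by Lgals4, binds glycans of the apical membrane and takes part in apical sorting. Cadherin-17, made by Cdh17, is the liver-intestine cadherin of the lateral membrane. In the healthy corpus, MUC1 is found at the surface epithelium, while villin, galectin-4 and cadherin-17 are best known from the intestine and, in human stomach, from intestinal metaplasia.

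The promoters of the 4 members with enough counts to follow in single cells are shown because they are the sequences next to which the measured levels arise. Each line is the RefSeq window of build GRCm38.p6 from 250 bases before to 50 after the annotated gene start, 5′ to 3′ on the strand of the gene, with matches to the searched motifs in capitals; 7 of 8 members were matched by symbol, and Cdh17 was not.
Muc1, chr3:89228806-89229105, plus strand: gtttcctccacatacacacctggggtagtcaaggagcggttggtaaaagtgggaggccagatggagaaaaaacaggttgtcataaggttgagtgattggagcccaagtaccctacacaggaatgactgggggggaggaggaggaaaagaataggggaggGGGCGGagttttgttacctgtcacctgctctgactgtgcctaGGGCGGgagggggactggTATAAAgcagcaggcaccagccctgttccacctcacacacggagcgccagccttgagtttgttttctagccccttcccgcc
Lgals4, chr7:28833544-28833843, plus strand: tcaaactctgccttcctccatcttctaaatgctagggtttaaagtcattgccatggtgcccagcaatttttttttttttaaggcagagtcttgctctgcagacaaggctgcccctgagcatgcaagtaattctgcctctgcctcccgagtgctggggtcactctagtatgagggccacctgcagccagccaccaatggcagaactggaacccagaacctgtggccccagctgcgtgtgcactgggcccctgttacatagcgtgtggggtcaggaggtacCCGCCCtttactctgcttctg
Vil1, chr1:74409134-74409433, plus strand: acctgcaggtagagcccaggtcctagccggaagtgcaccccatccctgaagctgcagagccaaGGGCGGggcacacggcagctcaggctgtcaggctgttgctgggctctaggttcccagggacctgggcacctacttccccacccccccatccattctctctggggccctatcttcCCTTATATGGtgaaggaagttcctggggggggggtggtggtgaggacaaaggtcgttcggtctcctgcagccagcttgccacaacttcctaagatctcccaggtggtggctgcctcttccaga
Ezr, chr17:6782731-6783030, minus strand: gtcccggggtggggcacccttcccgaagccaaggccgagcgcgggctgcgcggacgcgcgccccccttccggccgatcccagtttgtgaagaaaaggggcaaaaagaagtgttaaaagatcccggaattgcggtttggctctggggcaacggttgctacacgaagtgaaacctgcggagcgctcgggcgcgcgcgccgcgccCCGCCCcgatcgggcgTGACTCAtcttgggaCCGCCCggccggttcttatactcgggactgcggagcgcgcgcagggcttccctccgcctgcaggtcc

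Both strands of each window were searched for 8 motifs, and the share of all 32851 RefSeq windows with a match is given with each. The GC box GGGCGG, held by 35.7% of windows, was found in all 4 promoters shown, at positions -91 and -49 from the start in Muc1, +29 in Lgals4, -187 in Vil1, and -48 and -17 in Ezr. The TATA motif TATAAA, held by 13.6% of windows, was at -31 in Muc1 and at -36 in Muc4, whose window is not printed. The Vil1 window held a CArG box, the serum response factor motif, at -73 (1.63% of windows). The Ezr window held an AP-1 motif TGANTCA at -32 (7.81% of windows). Of the 2 Muc13 windows, the first held an AP-1 motif at -61, a STAT motif TTCNNNGAA at -140 (8.30% of windows) and a CDX motif TTTATG at -180 (11.9%), and the second held an AP-1 motif at -179 that overlapped an HNF4 motif CAAAGNCCA at -186 (1.98%). The HIF core ACGTG (19.6% of windows) was in no member's window, and the Muc20 window held none of the 8. These matches describe letters in a window and were not measured as bound sites.

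The libraries held 353485 barcodes with pyrvinium and 331629 with DMSO, with 64412821 and 64212118 counts in all. Barcodes with at least 13100 counts (pyrvinium) or 9320 counts (DMSO) were taken as cells, which gave 854 pyrvinium cells with a median of 31517 counts and 1602 DMSO cells with a median of 18593 counts. The cell sums were 37046673 and 39980497 counts. Of these sums, 1.63% with pyrvinium and 2.57% with DMSO came from mitochondrially encoded genes. The libraries shared 12981 barcodes, of which 0 were cells in both. The epithelial label held: 5 epithelial marker genes together gave 4997 CPM (counts per 1000000 of the summed cells) with pyrvinium and 7760 CPM with DMSO, while 6 fibroblast markers gave 0.810 and 1.03 CPM. Enterocyte markers were low, at 11.0 CPM with pyrvinium and 17.6 CPM with DMSO over 8 genes, most of it Anpep, and 3 of the 8 were at 0 in each library. The 5 chief cell markers in the files gave 5.61 CPM with pyrvinium and 13.3 CPM with DMSO. Those with enough counts were Bhlha15 (40 counts with pyrvinium, 154 with DMSO), Pgc (74 and 228) and Cblif (91 and 148). By the rule given below, which called 15.5% of all genes compared lower and 7.57% higher, these 3 were lower. So were Gkn3 of neck cells, at 61 counts with pyrvinium against 372 with DMSO, Spink4 of goblet cells, at 175 counts with pyrvinium against 633 with DMSO, and the epithelial keratins Krt19, at 906.0 CPM with pyrvinium against 2060 CPM with DMSO, and Krt8, at 1237 CPM with pyrvinium against 2014 CPM with DMSO. Of the other measured goblet cell markers, Muc2 was lower, and Tff3 and Fcgbp were neither higher nor lower. Zg16 of that list was higher, at 29 counts with pyrvinium against 11 with DMSO. Among neck cell markers Muc6 was also lower, and Tff2, Cd44 and Aqp5 were neither. Krt18, Cdh1 and Epcam of the epithelial list were neither as well. Ghrl, of enteroendocrine cells, had 86 counts with pyrvinium and 3 with DMSO. Endothelial markers summed to 58.9 CPM with pyrvinium and 43.2 CPM with DMSO, nearly all of it Cdh5 (2095 and 1667 counts), with Cldn5 at 0 in both. Leukocyte markers summed to 29.3 CPM with pyrvinium and 21.8 CPM with DMSO, with 2 of 7 genes at 0 in each library. Nearly all of this was Cd68 (1048 counts with pyrvinium and 841 with DMSO), while Ptprc had 28 and 14. The part of these cell types in the results below was not tested.

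Levels are in CPM, with exact Poisson 95% intervals, and differences are log2 ratios of pyrvinium over DMSO with exact binomial 95% intervals. All intervals cover counting error only. A gene was compared when it had at least 20 counts in the libraries together, and it is called higher or lower when it was at least 1.5-fold apart with its whole interval on that side of 1. Because the assay counts transcript ends, levels of different genes are compared without a length correction, and only as counts.

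Of the 8 genes, 6 could be compared, and all 6 had intervals wholly below a log2 ratio of 0. The share of all genes with such an interval was not counted, so this count has no background beside it. Muc1, Lgals4 and Muc4 were lower with pyrvinium, Muc13, Vil1 and Ezr fell short of 1.5-fold, and 0 were higher. Over all 15586 genes compared, 15.5% were lower and 7.57% were higher. With a minimum of 2-fold, Muc1 and Lgals4 were lower and 0 members higher, against 6.73% and 3.34% of all genes. The median log2 ratio of the 6 was -0.63, against -0.08 over all genes compared, whose quartiles were -0.44 and 0.24. Another scaling changed the background: with mitochondrial and ribosomal protein genes left out of the totals, 1526 genes were higher and 1982 lower, and with the median of ratios 1558 and 1952, against 1180 and 2416 as given here.

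**Figure D1:**
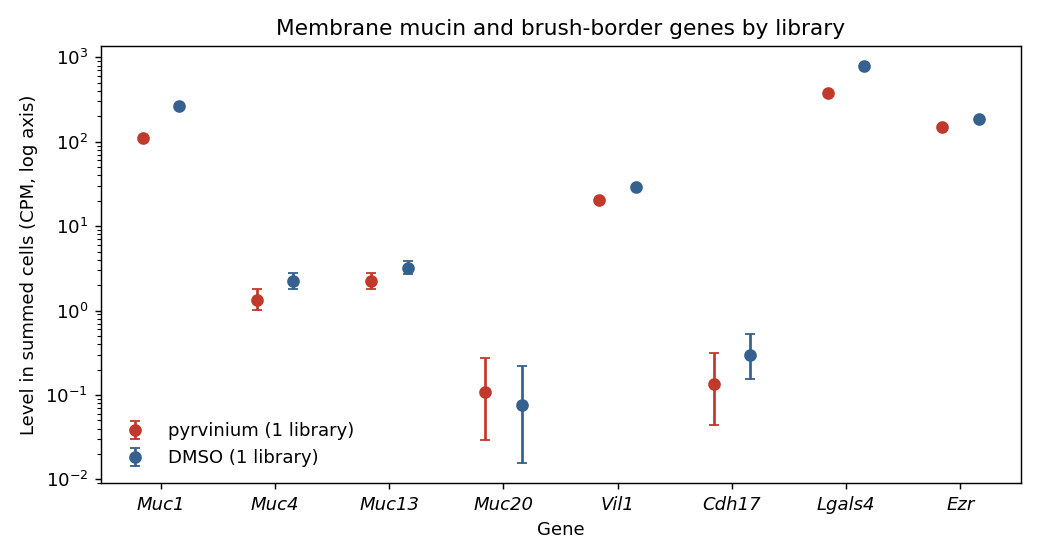
Level of each of the 8 genes in CPM of the summed cells (log axis), with pyrvinium and with DMSO, 1 library each; bars are exact Poisson 95% intervals. Muc1 and Lgals4 stood at 111 and 381 CPM with pyrvinium against 264 and 785 CPM with DMSO, and Muc20 and Cdh17 lay near the level of 3 counts.

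Muc1 (ENSMUSG00000042784), the prototype transmembrane mucin, had the largest ratio of the 6. It had 4111 counts, or 111 CPM (107.6 to 114.4), with pyrvinium, against 10539 counts, or 264 CPM (258.6 to 268.7), with DMSO. The log2 ratio was -1.25 (-1.30 to -1.20), a 2.38-fold lower level, and 4.34% of all genes compared had a lower ratio. It ranged from -1.34 to -1.16 over 12 alternative settings and stayed past 1.5-fold in all of them.

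Muc4 (ENSMUSG00000118672), a large mucin whose rat form binds the receptor ErbB2, was detected at a low level. It had 50 counts, or 1.35 CPM (1.00 to 1.78), with pyrvinium, and 90 counts, or 2.25 CPM (1.81 to 2.77), with DMSO. The log2 ratio of -0.74 (-1.27 to -0.22) put it 1.67-fold lower, with a wide interval because of the few counts. In the GENCODE M21 annotation, which is not known to be the one used for counting, Muc4 and Muc20 overlap on opposite strands. Muc4 has another gene identifier there than the one counted, and the overlap of the counted form was not looked up. Whether counting used strand is not given in the sources used here, so reads of the pair may have been mixed.

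Muc13 (ENSMUSG00000022824), a mucin of the gastrointestinal epithelium, fell short of 1.5-fold. It had 83 counts, or 2.24 CPM (1.78 to 2.78), with pyrvinium and 129 counts, or 3.23 CPM (2.69 to 3.83), with DMSO, a log2 ratio of -0.53 (-0.94 to -0.12). Of the 129 DMSO counts, 23 lay in 1 cell, or 17.8%, whereas the pyrvinium cell with the most held 7. Without the cell with the most counts in each library the ratio was -0.37 (-0.82 to 0.07), and among cells of the same range of total counts it was 0.19.

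Muc20 (ENSMUSG00000035638), which binds the receptor Met in human cells, had 4 counts with pyrvinium and 3 with DMSO. Since 3 counts correspond to 0.0810 CPM in the pyrvinium sum and 0.0750 CPM in the DMSO sum, no ratio is given.

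Beyond the members, the list of membrane mucins held 2 measured genes. Muc21 was lower, at 0.621 CPM with pyrvinium against 1.38 CPM with DMSO (log2 ratio -1.15), and Muc16 stood at 0.432 CPM with pyrvinium and 0.575 CPM with DMSO (-0.41). With Muc1, Muc4 and Muc13, 3 of 5 measured membrane mucins were lower and 0 higher, with a median of -0.74. Without the members this was 1 lower of 2, and over all genes compared 15.5% were lower and 7.57% higher. The secreted mucins and trefoil factors, products of mucous cells, had 3 of 6 lower and 0 higher. When only cells of like total counts were kept, 1 gene of this list was lower. Muc6, the mucin of gastric glands, had 1.84 CPM with pyrvinium and 3.88 CPM with DMSO (-1.08), and Muc2, the goblet cell mucin, had 3 counts with pyrvinium and 19 with DMSO. Tff1, a trefoil peptide of surface mucous cells, was the abundant gene of that list, at 404.3 CPM with pyrvinium and 332.8 CPM with DMSO. Its log2 ratio of 0.28 turned to -0.44 when only the 2 clusters shared by both libraries, set out below, were kept and weighted equally. The trefoil genes Tff2 and Tff3 had 33.7 and 10.2 CPM with pyrvinium, and 30.2 and 13.4 CPM with DMSO. Muc5ac, the surface mucous cell mucin, had 1 count with pyrvinium and 0 with DMSO.

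Lgals4 (ENSMUSG00000053964) was the most counted of the 8 genes. It had 14103 counts, or 380.7 CPM (374.4 to 387.0), with pyrvinium, against 31376 counts, or 784.8 CPM (776.1 to 793.5), with DMSO. The level was 2.06-fold lower, a log2 ratio of -1.04 (-1.07 to -1.01), and 6.76% of genes compared had a lower ratio. Alternatives gave -1.28 to -0.96, past 1.5-fold in all 12.

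The galectins, a family of glycan-binding proteins, moved in both directions, with 4 of 8 measured genes lower, Lgals4 among them, and 1 higher. Over all genes compared, 15.5% were lower and 7.57% higher. Lgals3, abundant in many epithelia, had 647.4 CPM with pyrvinium and 1403 CPM with DMSO (log2 ratio -1.12). Lgals2, a galectin of the gastrointestinal tract, had 10.6 CPM with pyrvinium and 22.2 CPM with DMSO (-1.06), and Lgals12 had 6.15 CPM with pyrvinium and 10.5 CPM with DMSO (-0.77). Lgals9 was higher, at 198.8 CPM with pyrvinium against 117.7 CPM with DMSO (0.76). Lgals1 had 735.1 CPM with pyrvinium and 926.5 CPM with DMSO (-0.33) and Lgals8 had 21.1 CPM with pyrvinium and 14.6 CPM with DMSO (0.53), and neither passed.

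Vil1 (ENSMUSG00000026175) had 753 counts, or 20.3 CPM (18.9 to 21.8), with pyrvinium, and 1154 counts, or 28.9 CPM (27.2 to 30.6), with DMSO. The log2 ratio was -0.51 (-0.64 to -0.37), 1.42-fold lower, and 21.8% of genes compared had a lower ratio. The interval is below 0 but the size rule was not met. Of 12 alternatives, 1 took the ratio past 1.5-fold, at -0.72. That alternative weighted the 2 clusters shared by both libraries equally and left out the other cells. Vil1 overlaps Usp37 on the opposite strand; Usp37 had 307 counts with pyrvinium and 317 with DMSO.

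The other genes of the microvillus actin core went both ways: of 18 measured without Vil1, 4 were lower and 1 higher, with a median of -0.14. The shares over all genes compared were 15.5% lower and 7.57% higher. Eps8, which caps and bundles actin at microvillus tips, had 17.3 CPM with pyrvinium and 26.2 CPM with DMSO (-0.60), past 1.5-fold in 5 of 11 alternatives. Its relative Eps8l1 had 4.91 CPM with pyrvinium and 9.55 CPM with DMSO (-0.96). Myo1a, the brush-border myosin, had 2.08 CPM with pyrvinium and 4.23 CPM with DMSO (-1.02), and all 3 were lower. The fourth, the actin bundler Fscn1, had 31 counts with pyrvinium and 60 with DMSO. Pls3, an actin bundler of the plastin family, was higher, at 18.6 CPM with pyrvinium against 12.01 CPM with DMSO (0.63), past 1.5-fold in 8 of 11 alternatives. Pls1, the plastin of intestinal microvilli, had 33.9 CPM with pyrvinium and 30.7 CPM with DMSO (0.14). The bundler Espn, at 10.6 CPM with pyrvinium and 15.7 CPM with DMSO (-0.57), and the membrane-bending Baiap2l2, at 11.7 CPM with pyrvinium and 17.2 CPM with DMSO (-0.56), missed the size rule.

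The intermicrovillar adhesion complex links the tips of neighbouring microvilli. Of its 4 measured genes, Calml4, a light chain of the complex's myosin, was higher, at 248.0 CPM with pyrvinium against 165.1 CPM with DMSO (0.59), past 1.5-fold in 8 of 11 alternatives. Anks4b, a scaffold of the complex, was lower, at 1.59 CPM with pyrvinium against 3.98 CPM with DMSO (-1.32). Among all genes compared, 15.5% were lower and 7.57% higher. The protocadherin Cdhr2 had 60 counts with pyrvinium and 68 with DMSO (-0.07), and Cdhr5, the other protocadherin, was at 0 in both libraries.

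Ezr (ENSMUSG00000052397) changed least of the 6. It had 5489 counts, or 148 CPM (144 to 152), with pyrvinium and 7501 counts, or 188 CPM (183 to 192), with DMSO, a log2 ratio of -0.34 (-0.39 to -0.29). That is 1.27-fold, short of the size rule in all 12 alternatives (-0.44 to -0.25). Among 11 other measured genes of the ERM group and its partners, 0 were higher and 0 lower, with a median of -0.04. The shares over all genes compared were 7.57% higher and 15.5% lower. The ezrin relatives Msn and Rdx had 18.6 and 22.9 CPM with pyrvinium, and 16.8 and 23.0 CPM with DMSO. Slc9a3r1, the scaffold that ezrin binds under the apical membrane, had 58.1 CPM with pyrvinium and 85.6 CPM with DMSO (-0.56), just short of 1.5-fold. Nf2, the merlin tumour suppressor gene, and Podxl, a sialomucin tied to ezrin, had ratios of -0.32 and -0.21.

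Cdh17 (ENSMUSG00000028217) had 5 counts with pyrvinium and 12 with DMSO, or 0.135 CPM with pyrvinium and 0.300 CPM with DMSO, and was not compared. The other adhesion molecules of epithelia did not pass: E-cadherin (Cdh1) had 101.8 CPM with pyrvinium and 124.1 CPM with DMSO, Epcam had 377.4 CPM with pyrvinium and 343.5 CPM with DMSO, and the tetraspanin Tspan8 had 292.0 CPM with pyrvinium and 352.3 CPM with DMSO. Cdx2, the intestinal transcription factor that drives CDH17 in human cells, had 0 counts with pyrvinium and 1 with DMSO.

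The remaining lists give the surroundings of the members. For each of them, the shares over all genes compared were 15.5% lower and 7.57% higher. Of 10 measured genes in the list of brush-border enzymes and transporters, aminopeptidase N (Anpep) was lower. It had 8.15 CPM with pyrvinium against 14.4 CPM with DMSO (-0.82). Apoa1, an apolipoprotein gene on the same list, was also lower, with 12 counts with pyrvinium against 34 with DMSO. Mme, a membrane endopeptidase, was higher, at 9.72 CPM with pyrvinium against 6.43 CPM with DMSO (0.60). With cell thresholds of 1000 or 3000 counts, with the pyrvinium library's threshold in both, and without the 5% of cells with the highest doublet scores, 0 genes of this list were higher. Among 20 measured enzymes of mucin-type O-glycosylation, B4galnt2, which caps glycans with N-acetylgalactosamine, was higher, at 193.0 CPM with pyrvinium against 69.2 CPM with DMSO (1.48). The core 2 enzyme Gcnt1 was lower, at 14.6 CPM with pyrvinium against 22.8 CPM with DMSO (-0.65; past 1.5-fold in 7 of 11 alternatives), as was the sialyltransferase St6galnac2 (-0.69). Galnt4 and Galnt2, which start O-glycan chains, had ratios of -0.58 and -0.53 and missed the size rule.

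Of 9 genes for receptors, catenins and signalling proteins paired with membrane mucins, Erbb2 was lower. It had 10.2 CPM with pyrvinium against 16.1 CPM with DMSO (-0.66). Its ratio was -0.58 and -0.57 under the other scalings and -0.52 when only cells of like total counts were kept, short of 1.5-fold. Egfr was higher, at 103 counts with pyrvinium against 68 with DMSO (0.71), and 0 genes of this list were higher when free RNA of barcodes with 10 to 100 counts was subtracted. Among all genes compared, 15.5% were lower and 7.57% higher. Erbb3 had 28.4 CPM with pyrvinium and 27.1 CPM with DMSO (0.07). The catenins Ctnnd1 and Ctnnb1 had ratios of -0.54 and -0.08. Of 11 measured transcription factors known from intestine, 3 were lower, against 15.5% of all genes compared. Among them, Elf3, an epithelial ETS factor, had 102.8 CPM with pyrvinium and 181.0 CPM with DMSO (-0.82). That ratio came to -0.14 when only the 2 shared clusters were kept and weighted equally. Klf4, a factor of differentiating epithelium, had 12.3 CPM with pyrvinium and 21.4 CPM with DMSO (-0.80), or -0.42 when only cells of like total counts were kept. Hnf4a had 33.5 CPM with pyrvinium and 29.9 CPM with DMSO (0.16), and Gata6 had a ratio of 0.02. Over the 103 measured genes of all 11 lists that are not members, 6 were higher and 20 lower, or 5.83% and 19.4%, near the shares over all genes, with a median of -0.10.

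**Figure D2:**
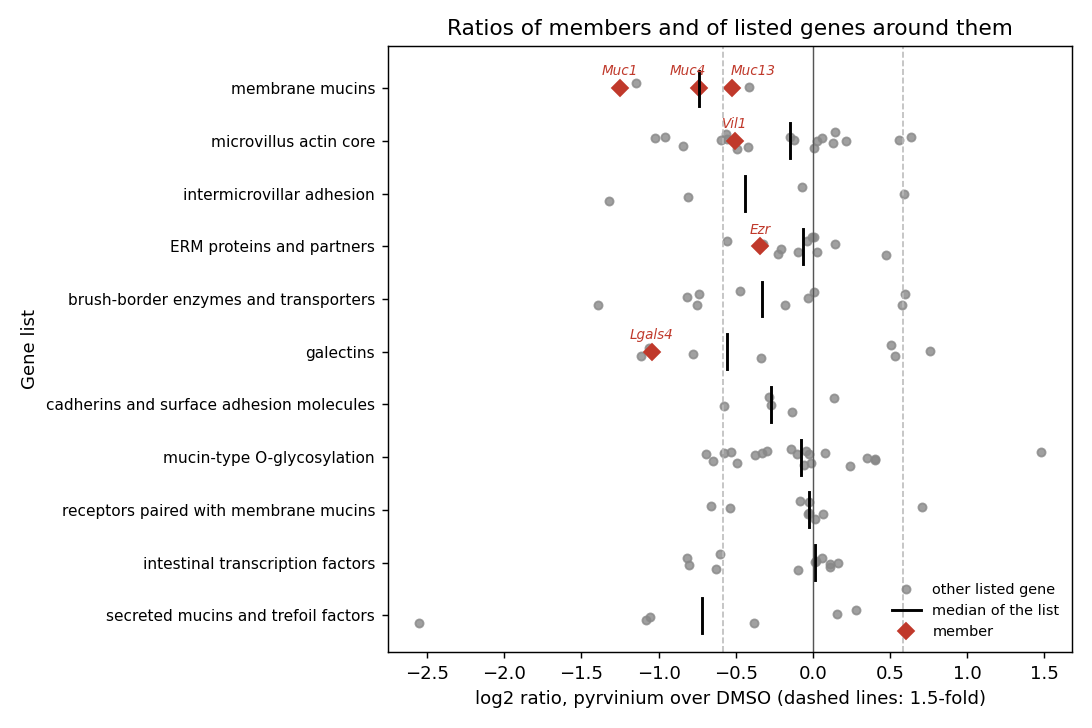
Log2 ratio of pyrvinium over DMSO for each measured gene of the 11 lists, 1 point per gene and 1 row per list, with the 6 measured members marked. The members lay between -1.25 (Muc1) and -0.34 (Ezr), and most lists held genes on both sides of 0.

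Barcodes with 100 to 500 counts were taken to hold RNA that is not inside cells, which is an assumption that was not tested. These were 52181 barcodes with pyrvinium and 48342 with DMSO, and they held 23.7% and 19.95% of all counts of their library. There, too, Muc1 was at 121.5 CPM with pyrvinium against 297.2 CPM with DMSO (log2 ratio -1.29), and Lgals4 at 344.1 CPM with pyrvinium against 674.1 CPM with DMSO (-0.97). Vil1 was at 20.3 CPM with pyrvinium and 35.3 CPM with DMSO (-0.79), and Ezr at 192.6 CPM with pyrvinium and 233.4 CPM with DMSO (-0.28). The level in cells over that in the small barcodes was 0.913 with pyrvinium and 0.887 with DMSO for Muc1, 1.11 and 1.16 for Lgals4, 0.999 and 0.818 for Vil1, and 0.769 and 0.804 for Ezr. The part of such RNA in the cells' counts was not tested. With 10% of it subtracted, Muc1, Muc4 and Lgals4 stayed past 1.5-fold. For Muc1 and Lgals4 the small barcodes had nearly the ratio of the cells, so this subtraction could hardly move their ratios and is no check on them.

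To set the share of cells with a count side by side, every cell was first thinned to 5000 counts, since pyrvinium cells were deeper. Muc1 was counted in 35.0% (31.8 to 38.3) of pyrvinium cells, against 62.6% (60.2 to 65.0) of DMSO cells (Clopper-Pearson 95% intervals). Lgals4 was counted in 65.9% (62.6 to 69.1) of pyrvinium cells, against 84.7% (82.9 to 86.4) of DMSO cells. These were the 2 members whose intervals lay apart. How many of all genes had such intervals apart was not counted, so this number has no background beside it. Without thinning, Muc1 was counted in 78.1% of pyrvinium and 87.3% of DMSO cells and Lgals4 in 89.6% of pyrvinium and 94.6% of DMSO cells.

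Ezr was counted in 50.5% (47.1 to 53.9) of thinned pyrvinium cells and 55.5% (53.0 to 58.0) of DMSO cells, and Vil1 in 9.60% (7.71 to 11.8) of pyrvinium and 13.05% (11.4 to 14.8) of DMSO cells. Both pairs of intervals overlapped here and lay apart with another random seed, so the separation depends on the draw. Unthinned, Ezr was counted in 93.7% of pyrvinium and 90.4% of DMSO cells and Vil1 in 47.2% of pyrvinium and 44.1% of DMSO cells. That order is opposite to the CPM, and the pyrvinium cells were the deeper ones.

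The low members were counted in few cells. Muc4 was in 0.585% (0.190 to 1.36) of thinned pyrvinium cells and 1.498% (0.962 to 2.22) of DMSO cells, and Muc13 in 0.820% (0.330 to 1.68) of pyrvinium and 1.31% (0.813 to 1.997) of DMSO cells. Unthinned, Muc4 was in 4.68% of pyrvinium and 4.81% of DMSO cells and Muc13 in 6.91% of pyrvinium and 3.995% of DMSO cells. Muc20 and Cdh17 were in 0 of 854 thinned pyrvinium cells, with an interval that allows a share of up to 0.431% with a count at this depth. They were in 0.0624% and 0.187% of DMSO cells. At full depth Muc20 was in 0.468% of pyrvinium and 0.187% of DMSO cells and Cdh17 in 0.585% of pyrvinium and 0.749% of DMSO cells.

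No cell type that should lack these genes stood apart in an epithelial organoid, so the background in these shares was not measured. If, as an assumed share, 10% of each thinned cell's counts were RNA of the small barcodes, that RNA alone would give a count of Muc1 in 5.90% of pyrvinium and 13.8% of DMSO cells, of Lgals4 in 15.8% and 28.6%, of Ezr in 9.18% and 11.0%, and of Vil1 in 1.01% and 1.75%. The cluster of cells with the lowest Muc1 share, cluster 1 below, had it in 23.2% of pyrvinium cells and 33.7% of DMSO cells, which may itself hold background.

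For Lgals4 and Muc1 the quartiles of the counts per thinned cell differed between the libraries. For Lgals4 the median was 1 count per pyrvinium cell and 3 per DMSO cell, the upper quartile 3 and 5, and the highest cell 11 and 18. For Muc1 the median was 0 with pyrvinium and 1 with DMSO, the upper quartile 1 and 2, and the highest cell 7 and 13. Ezr had a median of 1 in both libraries and Vil1 of 0. The variance over cells, which equals the mean under pure counting, was 1.12 times the mean with pyrvinium and 1.38 times with DMSO for Ezr. It was 2.36 times with pyrvinium and 2.69 times with DMSO for Lgals4, and 1.53 and 2.01 times for Muc1.

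**Figure D3:**
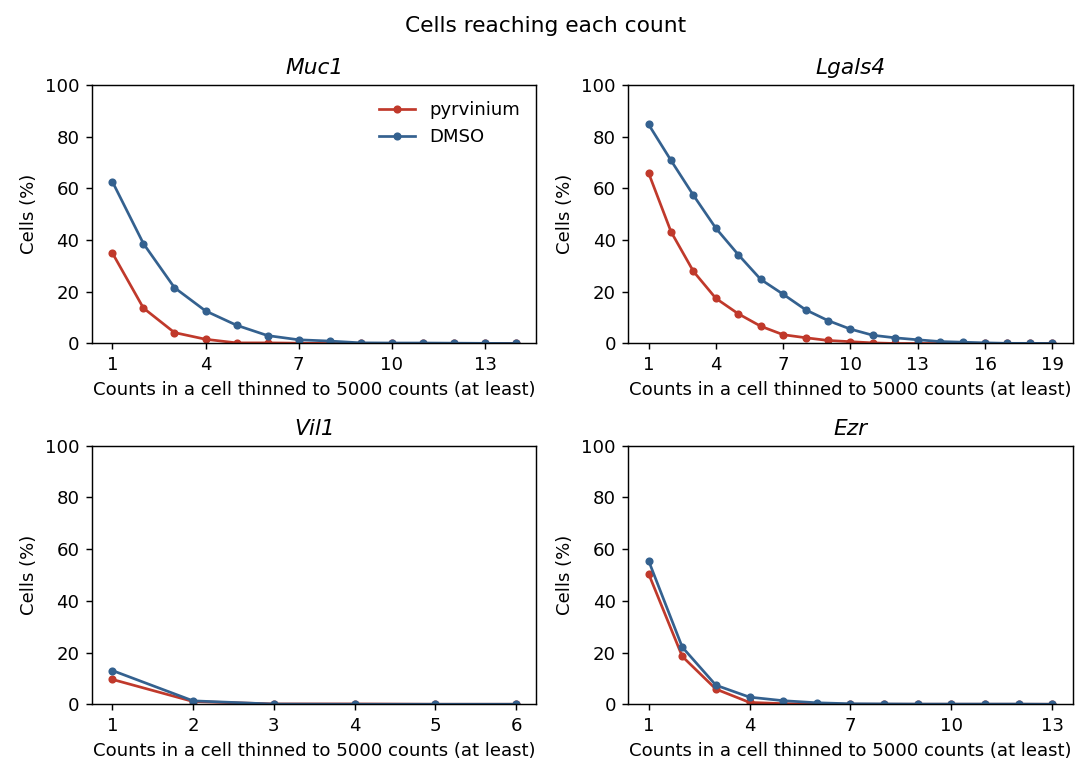
Share of cells (percent) with at least the number of counts on the x axis, for Muc1, Lgals4, Ezr and Vil1, after thinning to 5000 counts, for 854 pyrvinium and 1602 DMSO cells. Muc1 was counted in 35.0% of pyrvinium cells against 62.6% of DMSO cells, and the Ezr and Vil1 distributions of the libraries lay close together.

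Muc1 and Lgals4 were counted together in 22.2% of pyrvinium cells and 52.1% of DMSO cells, near the 23.1% and 53.0% that their separate shares would give if unrelated. Cells with neither made up 21.3% with pyrvinium and 4.81% with DMSO. Of the 8 members, 0 were counted in 10.5% of pyrvinium cells against 1.81% of DMSO cells, and 3 in 14.8% against 30.8%. Over cells, with the log of 1 plus counts per 10000, Pearson's r of Muc1 with Lgals4 was -0.07 with pyrvinium and -0.09 with DMSO. For Vil1 with Lgals4 it was 0.23 and -0.02, and for Vil1 with Ezr 0.20 and 0.05. These correlations describe cells of 1 library each, which share depth and free RNA, and are too weak to read.

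The genes whose values over cells were most like each member's were ranked by the lower of the 2 libraries' r among 6372 genes counted in at least 20% of cells of each. For Muc1 they were Fxyd3, with r of 0.54 with pyrvinium and 0.56 with DMSO, Cd24a, with 0.58 and 0.52, and Ifitm3, with 0.48 and 0.53. For Lgals4 they were Phgr1, with 0.56 and 0.48, Plac8, with 0.55 and 0.44, and Lgals1, with 0.44 and 0.40. For Ezr they were Anxa2, with 0.31 and 0.33, Ccnd2, with 0.32 and 0.30, and Anxa1, with 0.38 and 0.29. The 6 genes most like Muc1 and Lgals4 had log2 ratios between libraries of -0.39 to 0.00, against -1.25 and -1.04 for the members themselves. Phgr1 had 579.7 CPM with pyrvinium and 580.3 CPM with DMSO, Plac8 had 303.4 CPM with pyrvinium and 311.1 CPM with DMSO, and Cd24a had 457.4 CPM with pyrvinium and 579.1 CPM with DMSO. Of those most like Ezr, Anxa1 (-0.97) and Ccnd2 (-0.74) were lower and Anxa2 (-0.48) fell short of 1.5-fold. For Vil1 the first was Prom1, with 0.25 and 0.15, and for the 4 sparse members the leading gene had at most 0.15 in a library, too weak to name.

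The cells fell into 6 clusters, made without the members and the listed pathway genes, and 2 of them held at least 30 cells of each library. Cluster 1, led by Dusp4, Gdf15 and Ddit3, held 439 pyrvinium and 181 DMSO cells, and cluster 3, led by the mitotic genes Ccnb1, Plk1 and Cdc20, held 136 and 614. Cluster 4, led by Atf5, Hsd17b13 and Cldn2, held 267 pyrvinium cells and 1 DMSO cell. Clusters 2 (led by Ifitm1, Reg3g and Lrg1), 5 (Fosb, Ccnd2 and Thbs1) and 6 (with Mgarp and Ndrg1 among its leading genes) held 250, 244 and 312 DMSO cells and 9, 3 and 0 pyrvinium cells. A cluster that is almost wholly 1 library may be that library and not a kind of cell, so its values are given alone.

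Muc1 was lower with pyrvinium in both shared clusters, by different amounts. In cluster 1 it had 61.5 CPM (58.0 to 65.1) with pyrvinium against 100.2 CPM (91.7 to 109.2) with DMSO, 1.63-fold lower. In cluster 3 it had 77.5 CPM (70.6 to 85.0) with pyrvinium against 251.7 CPM (244.2 to 259.4) with DMSO, 3.25-fold lower. Cluster 4 reached 203.8 CPM in its pyrvinium cells, the highest of the 3 clusters with at least 30 pyrvinium cells, and the DMSO clusters 2, 5 and 6 had 546.8, 255.3 and 210.4 CPM.

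Lgals4 was likewise lower in both: 289.5 CPM with pyrvinium against 793.1 CPM with DMSO in cluster 1, 2.74-fold, and 405.9 CPM with pyrvinium against 901.4 CPM with DMSO in cluster 3, 2.22-fold. Its pyrvinium cells of cluster 4 had 512.8 CPM, while the DMSO clusters 2, 5 and 6 had 559.1, 1072 and 430.6 CPM. The order of the DMSO clusters differed between the genes: Muc1 was highest in cluster 2 and Lgals4 in cluster 5.

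Vil1 was 1.87-fold lower with pyrvinium in cluster 1, at 14.5 CPM with pyrvinium against 27.1 CPM with DMSO, and 1.45-fold lower in cluster 3, at 16.7 CPM with pyrvinium against 24.2 CPM with DMSO. Ezr differed in direction between the shared clusters. In cluster 1 it had 127.0 CPM with pyrvinium against 250.2 CPM with DMSO, 1.97-fold lower, and in cluster 3 it had 167.4 CPM with pyrvinium against 150.1 CPM with DMSO, a log2 ratio of 0.16 (0.05 to 0.26). With 1 library per group the difference between clusters was not tested. The sparse Muc4 and Muc13 had 1.16 and 2.65 CPM with pyrvinium in cluster 1, against 2.73 and 4.69 CPM with DMSO.

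**Figure D4:**
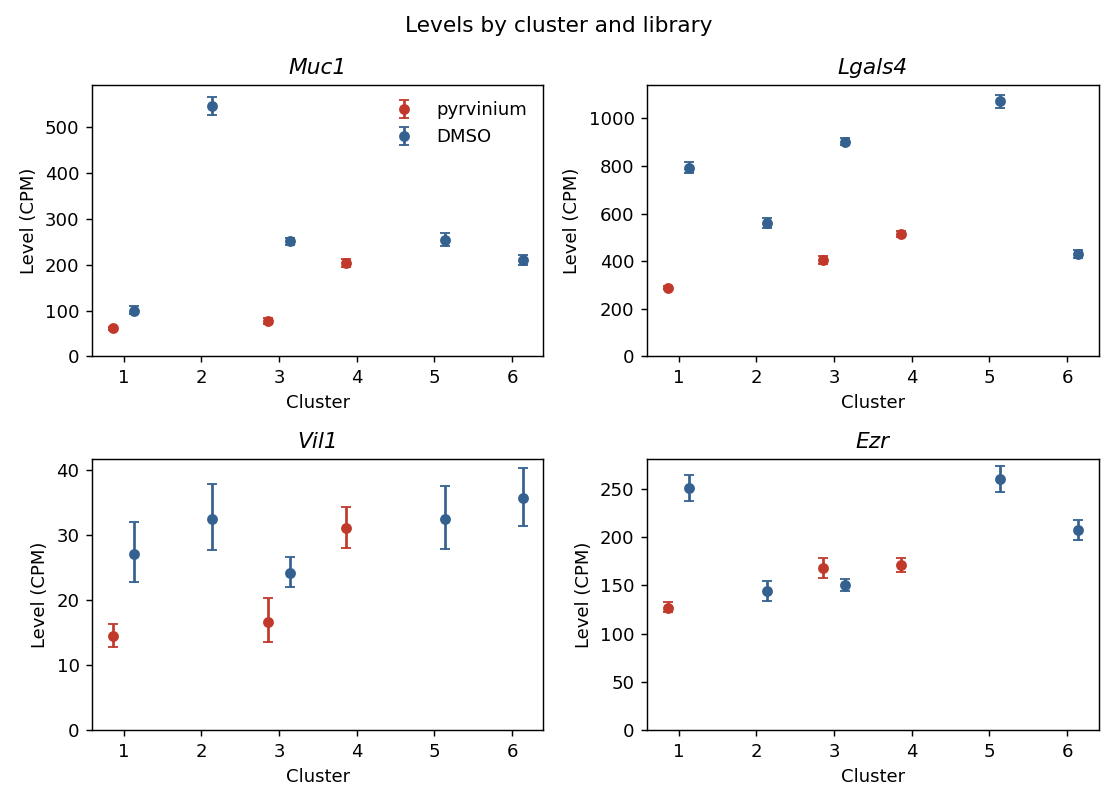
Level of Muc1, Lgals4, Vil1 and Ezr in CPM of the summed cells of each cluster with at least 30 cells, with pyrvinium and with DMSO; bars are exact Poisson 95% intervals. Clusters 1 and 3 hold cells of both libraries, and Ezr in cluster 3 was the 1 case with the pyrvinium level above the DMSO level, at 167.4 against 150.1 CPM.

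The pyrvinium cells were deeper, so the levels were also set out by depth, in 3 equal parts of each library's cells ordered from low to high total counts. Muc1 had 120.4, 113.4 and 108.0 CPM in the pyrvinium parts and 330.9, 288.2 and 234.9 CPM in the DMSO parts. Lgals4 had 386.5, 354.4 and 390.0 CPM with pyrvinium and 696.6, 718.8 and 836.9 CPM with DMSO. Ezr had 150.9, 152.2 and 146.0 CPM with pyrvinium and 180.1, 191.3 and 188.0 CPM with DMSO, and Vil1 had 21.5, 23.3 and 18.9 CPM with pyrvinium and 33.2, 28.7 and 27.8 CPM with DMSO. In all 4 genes the value of each pyrvinium part lay below that of each DMSO part.

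Cells with a count of Lgr5, a stem cell receptor gene, were set beside the rest of their library. Muc1 had 157.6 CPM in the 206 pyrvinium cells with Lgr5 and 86.6 CPM in the 648 without, and 323.2 CPM in the 543 DMSO cells with Lgr5 and 222.4 CPM in the 1059 without. Lgals4 had 401.0 and 370.0 CPM in these pyrvinium cells and 741.3 and 814.9 CPM in these DMSO cells, so its order differed between libraries. Ezr had 147.1 CPM in pyrvinium cells with Lgr5 and 148.7 CPM in those without, with overlapping intervals, and 173.5 CPM (167.2 to 180.0) in DMSO cells with Lgr5 and 197.4 CPM (191.8 to 203.1) in those without. Vil1 intervals overlapped in both libraries. The cells with Lgr5 were also deeper, with medians of 56735 counts against 26707 with pyrvinium and 22531 against 17283 with DMSO, and the part of depth was not tested.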

How the data were processed

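Cells of 1 organoid line were captured with the PIPseq method and its T2 kit, per the labels' protocols. Partek and the genome build GRCm39 were used, per the submitters' processing notes; for the aligner, counter, annotation and use of strand the entry is: not given in the sources used here. The authors deposited raw whole-number counts per gene and barcode, 1 matrix per library, and no source says whether molecules or reads were counted.

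Among the 2000 largest barcodes of a library the 99th percentile of total counts was divided by 10, and barcodes above the result counted as cells, with at least 500 genes and at most 20% mitochondrial counts. Their counts were added up within each library and divided to CPM. A share of 0 was bounded by a floor of 3 counts. Cells were clustered with scanpy 1.11.5 from 2000 variable genes (log of 1 plus counts per 10000, z-scores taken separately in the libraries), 30 principal components, 15 neighbours and Leiden resolution 0.5. Doublets were removed only as an alternative. The interval computation was tested on simulated data. Members and gene lists were chosen with earlier results of these data known. The rule for naming took up to 4 genes per list by absolute ratio among those reaching 10 CPM; further ones were named after their values were seen. In the features, 54 rows share a symbol with another row. Promoter windows come from RefSeq, build GRCm38.p6, and gene overlaps from the GENCODE M21 annotation, which differ from the authors' build. Some genes that the naming rules take are not reported here.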

Additional observations from a re-analysis of the deposited data

How the results depend on the processing

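The alternatives changed the cell threshold, the scaling, the treatment of doublets, of free RNA and of clusters, the thinning and the clustering. Over 12 of them the ratios of Muc1, Muc4 and Lgals4 stayed past 1.5-fold; that of Muc4 ranged from -1.05 to -0.61, of Muc13 from -0.79 to 0.19 and of Vil1 from -0.72 to -0.35. The median of the members ranged from -0.86 to -0.55. Equal cluster weights used clusters 1 and 3 only, and no interval. They left out cluster 4, with 267 pyrvinium cells, and clusters 2, 5 and 6, with 250, 244 and 312 DMSO cells. With these weights, 5 members were lower in place of 3, and 38 listed genes in place of 20. With cells of the same range of counts, 13 listed genes were lower. With another random seed, 4 members had thinned shares with intervals apart and lower in place of 2, and without thinning 2 members had shares apart and higher in place of 0. No background over all genes was counted for these shares. At resolution 1, 2 shared clusters had Vil1 at least 1.5-fold lower in place of 1. The other 67 counts and medians of this kind kept their side. Of the values for single genes, lists and shares, 676 stayed within their error and 176 moved, and 0 called genes changed sign. Genes that were not called and changed sign in an alternative were Muc13, Msn, Nf2, Erbb3, Ctnnb1, Gata6, Tff1 and Tff2. Among named list genes, Lgals2, Lgals3, Lgals9 and B4galnt2 stayed past 1.5-fold in all 11 alternatives, Lgals12, Anpep, Klf4 and Elf3 in 10, and Pls3, Calml4 and Erbb2 in 8, Gcnt1 in 7 and Eps8 in 5; listed genes under 10 CPM were not followed singly. The causes were not tested. No paired analysis was possible because each group is 1 library. Depth limits Muc20 and Cdh17, with at most 12 counts in a library, and 1 library per group limits every comparison.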
